A study of Mus musculus with 8 samples.

Results

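Pan-leukocyte genes encode surface and cytoskeletal proteins that nearly all white blood cells carry. The group described here has 10 members of 19938 genes with a value: Ptprc, Cd52, Cd53, Cd48, Cd37, Laptm5, Coro1a, Vav1, Hcls1 and Arhgdib. Each was matched by its symbol in the array's annotation, and each was represented by 1 transcript cluster, the unit that the array reports for a gene. RNA had been measured on 8 Affymetrix Mouse Gene 1.0 ST arrays. The samples came from primary mammary tumors under 1.0 cm across in FvB mice of genotype MMTV-Neu, in which the mouse mammary tumor virus promoter drives the Neu (rat Erbb2) oncogene mainly in mammary epithelium. Each tumor was dissociated and sorted by flow cytometry into a fraction called tumor-initiating cells (TIC) and a non-TIC fraction called CD24-, which gave 4 arrays per fraction. Tumors N251, N260 and N283 each gave 1 pair of arrays, and tumors N222 and N229 were pooled before the sort and gave the remaining pair. The comparison asks how the sorted TIC fraction differs from the CD24- cells of the same tumors. In both fractions the cells carried the same transgene, and which surface markers defined the TIC gate is not stated in the labels.

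A leukocyte is recognised by a small set of proteins shared across its lineages. Ptprc encodes CD45, the receptor-type tyrosine phosphatase that sets the threshold for Src-family kinases in immune receptor signalling. Around it sit small surface glycoproteins, tetraspanins that organise membrane domains, a lysosomal protein that limits receptor levels, and regulators of actin that drive migration and synapse formation. Together they are widely used to mark white blood cells in mixed tissue.

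All 10 genes had lower values in the TIC fraction of all 4 tumors, and for each of them every TIC array lay below every CD24- array. That full separation held for 4.68% of all genes, and a lower value in all 4 tumors for 11.8%. Differences are TIC minus CD24- on the log2 scale of the deposited intensities, and calls rest on limma with p-values adjusted by Benjamini-Hochberg over all genes, at under 0.05. Of the 10 genes 7 fell, namely Ptprc, Cd52, Cd53, Laptm5, Vav1, Hcls1 and Arhgdib, where 0.742% of all genes fell and 0.0502% rose. None of the 10 rose. At an unadjusted p under 0.05 all 10 were lower and 0 higher, where 6.24% of all genes were lower and 8.02% higher. The median difference over the 10 genes was -3.86, against 0.04 over all genes tested. A replicate block for the tumor raised the count to 9, Cd48 and Coro1a being added (background 1.09% fell and 0.863% rose). A random block for the tumor raised it to 10 (background 3.04%). The count went from 7 to 2 without the TIC array of N251, of N260, of N283 or of the pool, without the CD24- array of N260, or without both N283 arrays; the genes left were Cd53 and Laptm5, and 0.211% to 0.291% of all genes fell in these fits. It was 0 without both N260 arrays, where 0.0401% of all genes fell; at an unadjusted p under 0.05 all 10 were lower there, with 3.48% of all genes. Bulk RNA cannot tell fewer leukocytes in a fraction from less of these transcripts per cell.

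**Figure D1:**
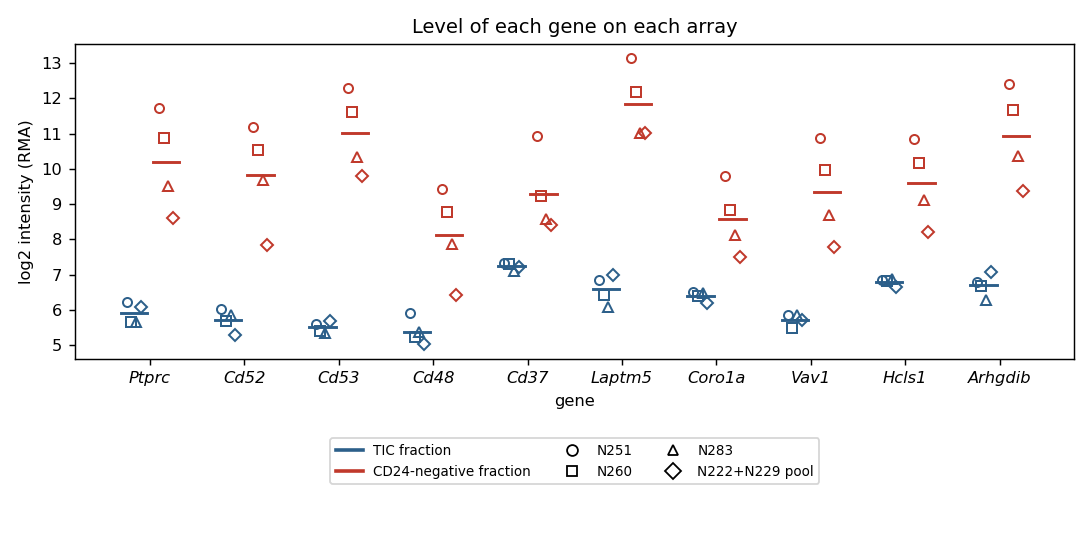
Log2 intensity (y axis) of each of the 10 genes (x axis) on each of the 8 arrays. Symbols mark the tumor, colour the fraction, and bars the mean of 4 arrays; for every gene all 4 CD24- arrays lie above all 4 TIC arrays, and the N251 array is the highest CD24- array.

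Promoter windows were available for 9 of the 10 genes, as 13 windows of 250 bases before and 50 after an annotated start (RefSeq, GRCm38.p6); Cd52 had none in the table. Because the genes moved together, the windows were searched on both strands for GGAAGT, the core bound by Ets factors such as PU.1, which directs myeloid and B cell genes. The motif was present in 9 of the 13 windows and in 8 of the 9 genes, against 23.8% of 32851 windows and 26.5% of 27025 genes. The Ptprc windows overlap and share a match, so the count of windows is not a count of separate sites. Coro1a was the gene without a match. The longer PU.1-type form GAGGAAGT, which contains GGAAGT, was found in Cd37, Cd53 and Vav1, against 3.69% of genes. TGTGGT, the Runx-type motif, was found in Arhgdib, Cd48 and Cd53 (18.9% of genes), and TATAAA in Arhgdib, Hcls1, Laptm5 and Ptprc (15.7% of genes). A match describes letters in a window and is no evidence of binding.

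The 100 bases before the start are shown for the 5 genes whose window lies at the outermost annotated start, read 5′ to 3′ on the gene's strand, with GGAAGT in capitals. They are Vav1 (chr17:57279000-57279099, plus strand), Hcls1 (chr16:36934883-36934982, plus), Cd53 (chr3:106790150-106790249, minus), Arhgdib (chr6:136941900-136941999, minus) and Coro1a (chr7:126704817-126704916, minus), all in GRCm38.p6.
Vav1: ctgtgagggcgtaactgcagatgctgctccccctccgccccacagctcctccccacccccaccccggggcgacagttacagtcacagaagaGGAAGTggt
Hcls1: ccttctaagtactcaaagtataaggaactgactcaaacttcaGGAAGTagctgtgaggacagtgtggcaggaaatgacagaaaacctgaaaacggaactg
Cd53: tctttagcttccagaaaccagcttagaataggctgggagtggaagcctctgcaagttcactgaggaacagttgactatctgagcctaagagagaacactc
Arhgdib: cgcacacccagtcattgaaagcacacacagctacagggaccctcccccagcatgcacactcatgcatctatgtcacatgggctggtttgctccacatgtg
Coro1a: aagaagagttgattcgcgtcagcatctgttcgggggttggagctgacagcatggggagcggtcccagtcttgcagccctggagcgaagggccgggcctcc
In Vav1 the capitals are preceded by GA and so form the longer PU.1-type motif, 11 bases before the start. In Cd53 the longer motif lies on the opposite strand 7 bases after the start, outside the stretch shown. Another Arhgdib window, at a start further inside the gene, held GGAAGT.

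The arrays of the TIC fraction correlated with each other at 0.984 to 0.994 over all genes and those of the CD24- fraction at 0.929 to 0.987. The fraction labelled CD24- was not without Cd24a RNA, which was at 11.22 ± 0.67 (SD, n = 4) there and at 12.32 ± 0.21 in TIC. Epithelial markers as a list were bright in both fractions, with the mean of 6 genes at 10.68 to 10.83 on the TIC arrays and at 9.92 to 10.69 on the CD24- arrays. Krt19 among them was low, at 5.99 to 6.61 on the TIC and 5.99 to 6.56 on the CD24- arrays. No detection call is part of the table. As a guide to the lower end of the scale, 95% of 1027 olfactory receptor genes, which mammary tissue is not known to express, lay below 6.58 to 6.78 on the TIC arrays. Between 2 and 4 of the 10 pan-leukocyte genes exceeded that limit on a TIC array, against 9 or 10 on a CD24- array. Probes differ in affinity, so this does not rank the genes, and a fold or difference against a TIC value near that end could be too small.

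Ptprc, the CD45 gene, had TIC values of 6.23 for N251, 5.64 for N260, 5.64 for N283 and 6.08 for the pool. In the CD24- fraction it was at 11.74, 10.87, 9.52 and 8.61 in the same order. The fractions did not overlap, with 2.38 between the highest TIC and the lowest CD24- array, and the CD24- arrays spread far more (SD 1.40) than the TIC arrays (SD 0.30). Ptprc fell by 4.29 ± 0.59 (SE), 19.6-fold on average (adjusted p = 0.0135, limma). The fold lower was 45.7 in N251 and 5.78 in the pool.

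Of the small surface glycoproteins, Cd52 encodes a very short peptide anchored by a lipid (GPI) and densely carried by lymphocytes and other leukocytes. It was at 6.02, 5.67, 5.85 and 5.29 in the TIC fraction of N251, N260, N283 and the pool. In the CD24- fraction the values were 11.20, 10.54, 9.69 and 7.85, the widest spread between CD24- arrays of the 10 genes (a range of 3.36). All TIC arrays were low, and the CD24- array of the pool came closest to them. Cd52 fell by 4.11 ± 0.61 (SE), 17.3-fold on average (adjusted p = 0.0207, limma).

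Cd48, another GPI-anchored protein and the ligand of the receptor encoded by Cd244a, was at 5.90, 5.23, 5.37 and 5.02 in the TIC fraction. The CD24- values were 9.42, 8.79, 7.86 and 6.42. The gap between the highest TIC and the lowest CD24- array, 0.51, was the smallest of the 10 genes, and the TIC array of N251 was the highest of its fraction. The difference was -2.74 ± 0.56 (SE; adjusted p = 0.0642, and 0.0376 when blocked by tumor, limma).

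Cd53 and Cd37 encode tetraspanins of leukocytes, proteins that cross the membrane 4 times and gather other receptors into domains. Cd53 was at 5.61, 5.40, 5.35 and 5.69 in the TIC fraction and at 12.29, 11.61, 10.34 and 9.80 in the CD24- fraction. Its TIC arrays lay within 0.34 of each other and its gap to the CD24- arrays was 4.12, the widest of the 10. Cd53 fell by 5.50 ± 0.48 (SE), 45.3-fold on average (adjusted p = 0.00173, limma). All 4 of its TIC values lay below the olfactory receptor limit, so the size of this fold is uncertain. The same held for the TIC values and differences of Ptprc, Cd52, Cd48, Vav1 and Coro1a.

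Cd37, which is best known from mature B cells, was at 7.34, 7.31, 7.09 and 7.22 in the TIC fraction. The CD24- values were 10.94, 9.23, 8.58 and 8.42. The N251 array stood 1.71 above the N260 array, and the other 9 genes had 0.63 to 0.96 between these arrays. The difference of Cd37, -2.06 ± 0.48 (SE), was the smallest of the group. It missed the threshold without the block (adjusted p = 0.107, limma) and also when blocked (0.0691). It was called with a random block (adjusted p = 0.0226). Without both N251 arrays its difference was smaller, -1.54, and was called (adjusted p = 0.0342), as it was without the CD24- array of N251 (0.00554) or of the pool (0.0323).

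Laptm5, a lysosomal membrane protein that lowers surface antigen receptors, was at 6.85, 6.42, 6.07 and 6.98 in the TIC fraction and at 13.14, 12.19, 11.02 and 11.03 in the CD24- fraction. The CD24- arrays of N283 and the pool did not differ beyond 0.01, whereas in the other 9 genes the pool lay below N283. Laptm5 fell by 5.26 ± 0.46 (SE), 38.4-fold on average (adjusted p = 0.00173, limma). Cd53 and Laptm5 were the 2 genes that passed an adjusted p under 0.01 without the block. With the block both were at 0.0189 (limma). The adjusted p was also higher with the block for Ptprc (0.0265), Cd52 (0.0244), Arhgdib (0.0294), Vav1 (0.0402) and Hcls1 (0.0412, limma).

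The cytoskeletal genes were led in size by Arhgdib, which encodes a regulator of the cytoskeleton made mainly in blood cells. It was at 6.80, 6.67, 6.29 and 7.06 in the TIC fraction and at 12.41, 11.66, 10.36 and 9.36 in the CD24- fraction. The pool had the highest TIC and the lowest CD24- value. Arhgdib fell by 4.24 ± 0.57 (SE), 18.9-fold on average (adjusted p = 0.0125, limma), with 48.8-fold in N251 and 4.93-fold in the pool.

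Vav1, a signalling protein that links immune receptors to the actin cytoskeleton, was at 5.85, 5.48, 5.86 and 5.71 in the TIC fraction and at 10.89, 9.97, 8.69 and 7.78 in the CD24- fraction. All TIC arrays lay within 0.38 of each other. Vav1 fell by 3.61 ± 0.57 (SE), 12.2-fold on average (adjusted p = 0.0259, limma).

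Hcls1 encodes HS1, the hematopoietic counterpart of cortactin, which stabilises branched actin. It was at 6.86, 6.81, 6.88 and 6.64 in the TIC fraction and at 10.85, 10.18, 9.12 and 8.20 in the CD24- fraction. Its TIC arrays were the closest together of the 10 genes (a range of 0.24). Hcls1 fell by 2.79 ± 0.48 (SE), 6.93-fold on average (adjusted p = 0.0384, limma). When all 35556 rows of the table were tested, Hcls1 and Vav1 were not called (adjusted p = 0.0743 and 0.0521).

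Coro1a, coronin 1A, binds actin and is needed for the survival and migration of T cells. Its TIC values were 6.50, 6.39, 6.49 and 6.18, and its CD24- values 9.80, 8.84, 8.13 and 7.51. The fractions were separated by 1.01. The difference was -2.18 ± 0.41 (SE; adjusted p = 0.0515, and 0.0425 with the block, limma).

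**Figure D2:**
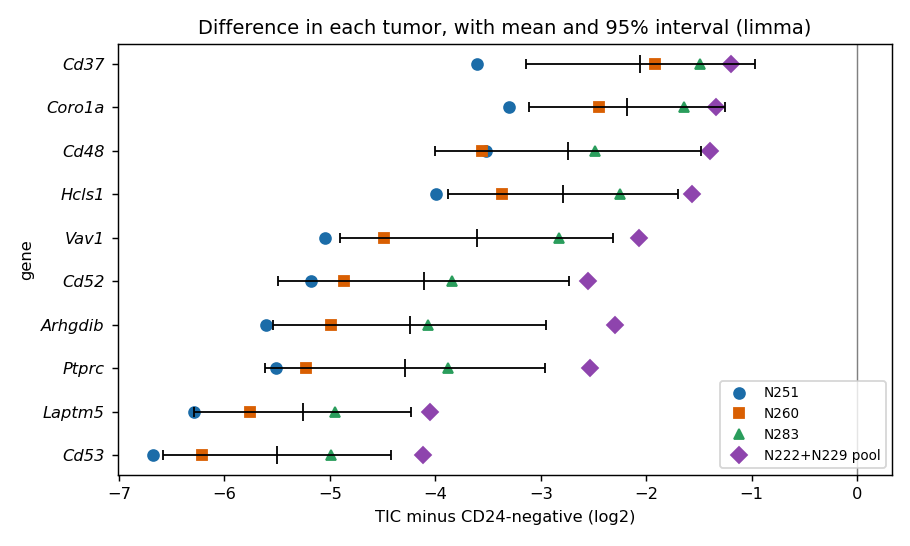
Difference TIC minus CD24- on the log2 scale (x axis) for each gene (y axis). Coloured symbols are the 4 tumors, ticks with bars the mean and its 95% interval from limma without the block; the pool lies nearest 0 for all 10 genes, and N251 farthest for 9 of them.

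The size of the differences followed the tumors in the same order from gene to gene. In the CD24- fraction the N251 array was the highest for 10 of 10 genes, where it was the highest for 37.0% of all genes, and the pool was the lowest for 9 of 10 (32.7% of all genes). The exact order N251, N260, N283, pool was seen for 9 genes (11.0% of all genes), Laptm5 being the exception. The TIC fraction had no such order, with the highest array being N251 for 5 genes, the pool for 3 and N283 for 2. Averaged over the 10 genes, the CD24- arrays stood at 11.27 (N251), 10.39 (N260), 9.33 (N283) and 8.50 (pool), and the TIC arrays at 6.40, 6.10, 6.09 and 6.19. The mean difference was accordingly -4.87, -4.29, -3.24 and -2.31. The SD between arrays was larger in CD24- for all 10 genes (65.3% of all genes), with a median of 1.24 against 0.24 in TIC. The genes come from the same arrays and share these tumor differences, so they are not separate observations of them.

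As a description over the 8 arrays, each gene correlated with the mean of the other 9 at 0.953 (Cd37) to 0.998 (Ptprc). These values are set largely by the gap between fractions and by the shared tumor order. The genes outside the group with the most similar pattern (Pearson correlation with the mean of the 10, each centred) were Ms4a6d (0.9988), Lair1 (0.9986), Vcam1 (0.9984), Nckap1l (0.9983) and Prkcb (0.9982), followed by Cyth4, Tm6sf1, Stab1, Sla and Tlr7 (0.9975). Their differences, whose direction the choice by similarity fixes, ranged from -4.25 for Nckap1l, a part of the actin-regulating WAVE complex of blood cells, to -3.07 for Prkcb, a protein kinase C. Of these 10 names 3 to 7 were still among the first 10 when a tumor was left out (3 without the pool, 5 without N260 or N283).

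Several of the 10 genes have relatives that are made in many tissues, which allows a comparison within a protein family. Of 32 measured relatives 1 fell and 0 rose (limma, against 0.742% and 0.0502% of all genes), and their median difference was -0.14. At an unadjusted p under 0.05, 12 were lower and 3 higher (6.24% and 8.02% of all genes). Of these relatives, 23 were other than those of Cd48, with a median of -0.02. Among those, 7 were lower in all 4 tumors (11.8% of all genes).

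Laptm4a and Laptm4b, lysosomal relatives of Laptm5, differed by 0.01 (95% interval -0.18 to 0.20) and 0.14 (-0.28 to 0.57). Cd9 and Cd81, tetraspanins of epithelial and many other cells, differed by 0.35 (-0.14 to 0.84) and 0.07 (-0.15 to 0.28). Ptpra and Ptprf, receptor phosphatases related to Ptprc, differed by -0.07 (-0.26 to 0.13) and 0.36 (-0.21 to 0.94).
Among cytoskeletal relatives, Cttn, cortactin itself, differed by 0.55 (0.09 to 1.01), whereas Hcls1 was lower in each tumor. All 4 TIC arrays of Cttn lay above its CD24- arrays, as for 1034 of 19938 genes. The margin was below rounding, since the TIC array of N260 and the CD24- array of N283 both read 9.94. The coronins Coro1b and Coro1c differed by -0.40 (-0.80 to 0.00) and -0.07 (-0.44 to 0.29). Vav2 and Vav3 differed by -0.53 (-1.04 to -0.01) and 0.29 (-0.11 to 0.69). None of these 11 relatives was called (limma, adjusted p from 0.272 to 0.984).

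The difference of a leukocyte gene minus that of a relative was tested over the 4 tumors for 11 pairs. Cd48, Cd52 and Arhgdib were in no pair, and Coro1a was not paired with Coro2a or Coro7. It was negative in 4 of 4 tumors for every pair, from -1.78 ± 0.57 (SD, n = 4) for Coro1a against Coro1b to -5.85 ± 1.56 for Cd53 against Cd9. For Laptm5 against Laptm4a it was -5.27 ± 1.01, for Vav1 against Vav2 -3.08 ± 1.05, and for Hcls1 against Cttn -3.34 ± 1.47. The exact two-sided sign-flip permutation test gave the same p = 0.13 for each pair, also after Benjamini-Hochberg adjustment over the 11 pairs, which is the smallest value that 4 tumors allow. These contrasts compare changes and not levels.

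The relatives of Cd48 differed from the rest as a set, not gene by gene. All 9 measured members of the CD2 and SLAM receptor family were lower in each of the 4 tumors (11.8% of all genes), with a median of -1.85. For 7 of them the fractions did not overlap (4.68% of all genes). Slamf1 differed by only -0.15 and its fractions overlapped. Outside this family Coro2a (-1.25), Coro7 (-0.71), Cd63 (-0.66) and Tspan32 (-0.60) had the largest differences among relatives lower in all 4 tumors. Of all 32 relatives 4 were higher in all 4 tumors, against 4626 of all 19938 genes. Cd84, a self-binding receptor of this family, fell by 3.19 (adjusted p = 0.0462, limma), and the value was -4.72 in N251 and -1.88 in the pool. The call was lost without both arrays of N251, N260 or N283, without any 1 TIC array, or without the CD24- array of N260. No relative was called either with robust eBayes, cyclic loess, quantile normalization, all rows or only genes at or above the median level. Slamf6, a relative on T and NK cells, was the other gene that fell with the block (adjusted p = 0.0476, and 0.119 without it). These are leukocyte receptors too, and the split between them and the other relatives was made after their values were seen.

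**Figure D3:**
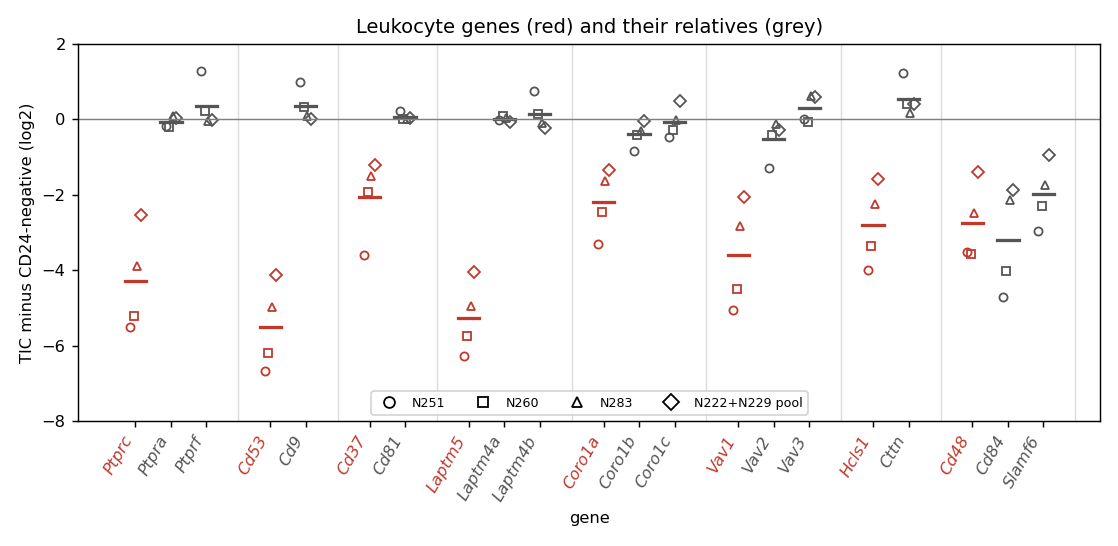
Difference TIC minus CD24- on the log2 scale (y axis) for leukocyte genes in red and relatives in grey (x axis). Symbols are the 4 tumors and bars the mean. The relatives shown for Ptprc, Cd53, Cd37, Laptm5, Coro1a, Vav1 and Hcls1 have means from -0.53 (Vav2) to 0.55 (Cttn). Cd84 and Slamf6, relatives of Cd48, lie below 0 in all 4 tumors. Other relatives, among them Coro2a (-1.25), are not shown.

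Beyond the group, a list of 57 further genes of leukocyte signalling, adhesion and cytoskeleton had 51 measured. Of these 13 fell and 0 rose (limma), where 0.742% of all genes fell and 0.0502% rose. At an unadjusted p under 0.05, 42 were lower and 0 higher (6.24% and 8.02% of all genes). Lower in all 4 tumors were 44 (11.8% of all genes), and the median difference was -2.02. The largest falls were those of the immune receptor adaptors Fcer1g (-4.99, adjusted p = 0.00173) and Tyrobp (-4.96, adjusted p = 0.00191), which couple activating receptors to the kinase Syk. Fyb, an adaptor that links receptors to integrins and actin, fell by 4.71 (adjusted p = 0.0118), Nckap1l fell by 4.25 (adjusted p = 0.00899), and Spi1, which encodes PU.1, fell by 4.09 (adjusted p = 0.00847; all limma). With a random block 35 fell (3.04% of all genes). Without both N260 arrays 0 fell (0.0401% of all genes), and 35 were lower at an unadjusted p under 0.05 (3.48%). Leaving out 1 CD24- array gave 26 for N251 (1.57% of all genes), 38 for the pool (2.92%) and 3 for N260 (0.281%). The count was 4, 5, 4 and 2 without the TIC array of N251, N260, N283 and the pool (0.261% to 0.291% of all genes). Without both arrays it was 2 for N283 (0.211% of all genes) and 21 for the pool (1.13%).

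Markers of single lineages moved beside the pan-leukocyte genes to different degrees, and their part in the values above was not tested. Of 10 macrophage markers 8 fell, led by Lyz2 (-5.77), the lysozyme of myeloid cells, and Mpeg1 (-5.43), a pore-forming protein, and the list mean was at 9.84 to 12.37 on the CD24- arrays and at 6.52 to 6.90 on the TIC arrays. Of 9 T and NK cell markers 1 fell, Cd3g of the T cell receptor complex (-5.62), while the granule gene Nkg7 differed by -4.27 (adjusted p = 0.0504, limma). Cd3e and Cd3d of the same complex differed by only -2.43 and -0.84 (adjusted p = 0.134 and 0.302, limma). The list mean was at 7.05 to 9.82 on the CD24- and 5.98 to 6.24 on the TIC arrays. Without both N260 arrays 1 macrophage and 0 T and NK cell markers fell (9 and 7 lower at an unadjusted p under 0.05). Over all genes 0.742% fell in the fit to all arrays and 0.0401% without both N260 arrays. Both list means followed the order N251, N260, N283, pool in the CD24- fraction, N251 standing above the pool by 2.53 for macrophage, 2.77 for T and NK cell markers and 2.77 for the 10 pan-leukocyte genes.

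Other lineages were closer in both fractions. B cell markers (0 of 5 called, 2 lower at an unadjusted p under 0.05) had a list mean of 5.92 to 6.58 on the CD24- and 5.70 to 5.97 on the TIC arrays, with Cd79b, a chain of the B cell receptor, at -1.25 and Ms4a1, the CD20 gene, at -0.49. Neutrophil markers (0 of 7 called, 4 lower unadjusted) were at 6.08 to 7.07 and 5.62 to 5.92, with the growth factor receptor gene Csf3r at -2.20 and Ngp, a granule protein gene, at -0.68. Of 6 dendritic cell markers 2 fell, Siglech (-1.59) and Cd209a (-1.13), with list means of 6.54 to 7.08 and 6.13 to 6.32. The others, Clec9a (-0.35), Flt3 (-0.20), Xcr1 (-0.15) and Zbtb46 (0.07), were not called. Over all genes 0.742% fell and 6.24% were lower unadjusted. With the block Cd79b and Csf3r fell (adjusted p = 0.0313 and 0.0425, limma), where 1.09% of all genes fell. The dendritic cell list had 0 called without both N260 arrays (3 lower unadjusted), where 0.0401% of all genes fell and 3.48% were lower unadjusted.

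Endothelial and fibroblast markers had 0 of 6 called each (1 and 2 lower at an unadjusted p under 0.05, limma), with Pecam1 at -0.64 and Cdh5 at -0.21, both junction proteins of vessels, and with the matrix proteoglycans Dcn at -1.55 and Lum at -0.40. Epithelial markers had 0 of 6 called (1 higher unadjusted), with the junction gene Cldn7 at 0.69 and the keratin gene Krt8 at 0.43. Over all genes 6.24% were lower and 8.02% higher unadjusted. On the CD24- arrays the epithelial mean was lowest in N251 (9.92), where the pan-leukocyte mean was highest. It was 10.51 in N260, 10.69 in N283 and 10.59 in the pool. The pool, with the lowest pan-leukocyte mean, was thus not the highest, and a relation between these means was not tested.

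**Figure D4:**
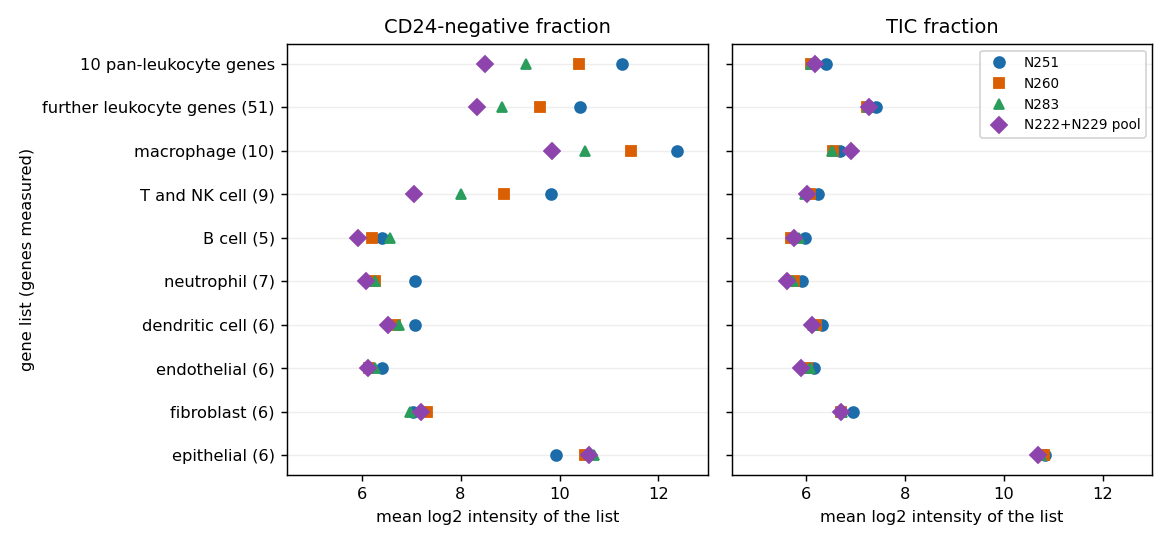
Mean log2 intensity (x axis) of the measured genes of each list (y axis, number of genes in brackets) on each array, with the CD24- fraction at the left and the TIC fraction at the right. The 10 pan-leukocyte genes, the further leukocyte genes, and the macrophage and T and NK cell markers spread by tumor in the CD24- fraction and not in the TIC fraction.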

How the data were processed

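The authors deposited log2 intensities per transcript cluster; RMA and Partek are named in the submitters' processing notes; a build, settings and versions were not given in the sources used here. Values ran from 1.76 to 14.6 and array medians from 7.03 to 7.18. The number of arrays limits precision. Of 35556 rows, 21789 carried 1 gene symbol, 1621 several and 12146 none in the platform annotation; 21698 matched the RefSeq names and 0 were renamed. The brightest cluster stood for a gene, which left 19938 genes.

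Differences were fitted with limma 3.58.1 in R 4.3.3 on all 8 arrays without a block. A tumor block was an alternative: paired arrays share a tumor per the labels, and their deviations from group means correlated at 0.32, 0.43, 0.30 and 0.56 (N251, N260, N283, pool). Numbers in the titles and in the growth protocol differ for N251 and N260 (N250 and N261 in the latter), and titles were followed. Replicates are separate tumors or a pool. The fit was run on simulated data with the same residual spread in both fractions. The members spread more in the CD24- fraction, so that run does not vouch for their p-values.

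The members and lists were chosen with earlier results of these data known. Named were the 10 members, the 5 largest called genes of the further leukocyte list, the relatives in the 11 pairs and any other called relative, the 2 largest of each marker list and the 10 most similar genes. Slamf1, Slamf6, Coro7, Cd63, Tspan32, Cd3d, Cd3e, Clec9a, Flt3, Xcr1, Zbtb46, Krt19 and Cd24a were added after their values were seen. So were the genes of the closing observations other than mast cell, erythroid and platelet and proliferation markers. Protein sequences and Arhgdib relatives were not analysed here.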

Additional observations from a re-analysis of the deposited data

How the results depend on the processing

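Limits first: 4 arrays per fraction, a lower end of the scale without a detection call, and calls that rest on few arrays. Over 24 settings (23 for Cd48) the members had 239 values, all negative, from -5.96 to -1.51; 175 kept their side of the threshold, 43 lost the call and 21 gained it. Blocks on all arrays, eBayes options, row filters and cluster means leave a member's difference as it is. Scalings moved the median of all genes to at most 0.071. The cause of changed counts was not tested, beyond fewer samples or a stricter threshold. The block without N251 was chosen after seeing the data.

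Of the 10 members, in fits without the block, 2 fell at an adjusted p under 0.01, 2 to 10 without 1 array and 0 to 9 without 1 tumor. In the further leukocyte list (13), 35 fell when the block was random, 38 under array weights, 32 with the block and no N251 arrays, and 5 at an adjusted p under 0.01; leaving out arrays or tumors gave 0 to 38.

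Of the relatives (1 fell), 2 fell with the replicate block, 6 with a random block, 9 with array weights and 6 with the block and no N251 arrays; 0 fell among genes at or above the median level, with robust eBayes, cyclic loess, quantile normalization, all rows and an adjusted p under 0.01, and 0 to 8 without an array or tumor. At an unadjusted p under 0.05, 12 were lower in the fit to all arrays and 6 without N260.

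Over all genes (148 fell, 10 rose), 606 and 430 were called when the block was random, 778 and 191 under array weights, 480 and 360 with the block and no N251 arrays, and 58 and 0 at an adjusted p under 0.01. With the replicate block 218 fell and 172 rose. The count of risen genes was 26 under median centring, 3 under cyclic loess, 2 with all rows, 2 where a difference of at least 1 was required, and 5 among the brighter genes. Leave-outs gave 8 to 583 lower and 0 to 46 higher. Of the 10 similar genes 3 to 7 were shared without a tumor. The 11 contrasts with relatives stayed negative with each tumor left out, and the block changed no other call of a member.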

Other observations

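Some genes of the further leukocyte list were bright in the TIC fraction and were not called. Lcp1, which encodes the actin bundler L-plastin, was at 11.59, 11.78, 11.61 and 11.63 on the TIC arrays of N251, N260, N283 and the pool and at 12.42, 12.18, 11.78 and 11.42 on the CD24- arrays. Its fractions overlapped, and its difference was -0.30 (adjusted p = 0.542, limma). Dock8, an exchange factor for Cdc42, was at 10.67 to 10.82 on the TIC and 10.68 to 11.40 on the CD24- arrays (difference -0.22, adjusted p = 0.568). Capg, an actin capping protein, was higher in the TIC fraction of all 4 tumors by 0.06 to 1.29 (mean 0.52, adjusted p = 0.507), the one such gene among 51. Over all genes 4626 of 19938 were higher in all 4 tumors. Cd44, an adhesion receptor of leukocytes and epithelium, differed by 0.05 (adjusted p = 0.966), with 0.67 in N251 and -0.42 in the pool.

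Srgn, the granule proteoglycan gene, combined both features. It was at 9.10 to 10.56 on the TIC arrays and at 11.73 to 13.48 on the CD24- arrays, and it fell by 2.54 (adjusted p = 0.0334, limma). Coro2a, a relative of Coro1a, had a difference of -1.25 (adjusted p = 0.202, limma), with N251 at -2.34 and the pool at -0.19.

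Mast cell and basophil markers (0 of 4 called, 0 at an unadjusted p under 0.05, limma) had list means of 4.57 to 4.85 on the TIC and 4.60 to 4.89 on the CD24- arrays, with Fcer1a at -0.29 and Ms4a2 at 0.11. Erythroid and platelet markers (0 of 4 called, 1 lower unadjusted) included Pf4 at -0.62 and Alas2 at 0.21. Of 4 proliferation markers 0 were called without the block (3 higher unadjusted) and 4 rose with it, with Cdk1 and Kif11 both at 1.37. Over all genes 6.24% were lower and 8.02% higher unadjusted, and 0.863% rose with the block. Dixon's test for an outlying array found none in 26 groups of 4 values. These were each member, and the means of the member, further leukocyte and relative lists, in each fraction. With 4 values only an extreme array can be found. The marker lists and single genes of the further leukocyte list were not tested. Among the latter, Dock10 was at 7.02 on the TIC array of N260 and at 9.57, 9.41 and 9.80 on those of N251, N283 and the pool.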
